A study of Mus musculus with 28 samples.

Results

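RNA-sequencing (seq) of hippocampal microglia was examined for 7 genes of immune restraint, *Pdcd1*, *Cd274*, *Lag3*, *Havcr2*, *Vsir*, *Sirpa* and *Cd200r1*. They were taken by symbol from the 48587 genes of the deposited count table, and all 7 passed the filter on low counts that left 15298 genes for testing. The libraries came from 28 mice, 1 library each, of 16 weeks of age. SPF mice numbered 5 WT and 3 5xFAD, GF mice 4 WT and 5 5xFAD, and ABX mice 5 WT and 6 5xFAD. 5xFAD mice were heterozygous males of a mouse model of Alzheimer's disease (AD) on a C57BL/6J background that carry human APP and presenilin transgenes with familial AD mutations under a neuron-specific promoter, and WT mice were their non-transgenic littermates. SPF mice were kept under specific pathogen-free conditions, GF mice were germ-free, and ABX mice drank a mixture of vancomycin, cefoxitin, gentamicin and metronidazol for 8 weeks. GF mice were derived by embryo transfer and came from another facility than the SPF and ABX mice, so an effect of germ-free housing and one of the facility cannot be told apart. Microglia were sorted as viable CD11b+CD45low cells, and CD3, CD45R, Ly6C and Ly6G were among the surface markers gated out.

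Immune checkpoint receptors are membrane proteins that dampen the cell that carries them once a ligand on a neighbouring cell is bound. Some of them do so by recruiting phosphatases to short tyrosine motifs of their tails. Several of them are best known from T cells, while others belong to myeloid cells: SIRPα on phagocytes reads CD47 as a signal not to engulf, and the receptor for CD200 lets neurons, which carry CD200, restrain microglia. TIM-3 and VISTA are found on both lineages, and microglia around amyloid plaques are known to change many of their surface receptors.

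Sequencing depth was 14441610 to 29977395 reads on genes per library, and no pair of libraries of a group agreed within sampling noise. Transcript levels are given as counts per 1000000 reads on genes (CPM), scaled between libraries by the trimmed mean of M values (TMM). A mouse is called by its library title, in which FAD stands for 5xFAD. Library descriptions pair a number with a mouse number for all SPF mice, all ABX WT mice and FAD_ABX_1151, and with a group name for every GF mouse and the other ABX 5xFAD mice. What this form marks is not given in the sources used here, and in ABX mice it goes with genotype in all but FAD_ABX_1151. FAD_GF_201 is a 5xFAD mouse by its title and genotype label and a WT mouse by its description, and the differences of the 7 genes called in GF 5xFAD mice are given with and without it. The 8 microglia markers summed to between 47954 and 63800 CPM in every library. The 10 T cell markers summed to at most 4.7 CPM in a library, with at most 0.0577 CPM of *Cd3d*, 0.0538 CPM of *Cd3e* and no read of *Cd8a* or *Cd2*, whereas *Cd4* reached 4.21 CPM and *Lck* 3.21 CPM. The 6 natural killer (NK) cell markers summed to at most 5.27 CPM, with no read of *Ncr1* or *Gzma* and up to 3.92 CPM of *Klrk1* and 2.78 CPM of *Klrb1c*. The 5 B cell markers summed to 522.4 to 871.5 CPM, of which *Ighm* had 488 to 835.1 and *Cd79b* 22.4 to 51.8 CPM, and the 5 oligodendrocyte markers to 128.5 to 220.2 CPM.

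All positions are of the GRCm38 build. *Pdcd1* lies at chr1:94038305-94052553 on the minus strand, *Cd274* at chr19:29367455-29388095 on the plus strand, *Lag3* at chr6:124904361-124911705 on the minus strand and *Havcr2* at chr11:46454935-46481255 on the plus strand. *Vsir* lies at chr10:60346851-60372684, *Sirpa* at chr2:129592835-129632228 and *Cd200r1* at chr16:44765736-44794978, each on the plus strand. Reads were counted over exons, whose summed lengths were 1930 bases for *Pdcd1*, 3622 for *Cd274*, 2109 for *Lag3*, 2721 for *Havcr2*, 5014 for *Vsir*, 4911 for *Sirpa* and 2034 for *Cd200r1*. *Cd274* shares 511 exon bases with the antisense gene AC119228.1. The library kit does not mark strand, so reads of those bases cannot be assigned to either gene. *Vsir* lies inside *Cdh23* on the opposite strand and shares 0 exon bases with it. *Sirpa* and *Cd200r1* have close relatives whose reads could be mistaken for theirs, the Sirpb1 genes and *Cd200r4*.

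The RefSeq promoter table (GRCm38.p6) held 4 of the 7 genes, and the 250 bases before their transcription starts are shown to set *Pdcd1* and *Cd274*, which are among the genes that rose in 5xFAD mice under all 3 conditions, beside 2 highly expressed ones, *Havcr2* and *Vsir*. They are at chr1:94052554-94052803 on the minus strand for *Pdcd1*, chr19:29367188-29367437 for *Cd274*, chr11:46454681-46454930 for *Havcr2* and chr10:60346601-60346850 for *Vsir*, the last 3 on the plus strand. Each is written 5′ to 3′ along its gene, with motif matches in capitals.
Pdcd1: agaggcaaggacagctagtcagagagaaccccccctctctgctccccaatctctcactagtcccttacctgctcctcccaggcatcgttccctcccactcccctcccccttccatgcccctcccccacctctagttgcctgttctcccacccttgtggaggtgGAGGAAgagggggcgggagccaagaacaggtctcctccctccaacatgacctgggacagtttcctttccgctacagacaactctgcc
Cd274: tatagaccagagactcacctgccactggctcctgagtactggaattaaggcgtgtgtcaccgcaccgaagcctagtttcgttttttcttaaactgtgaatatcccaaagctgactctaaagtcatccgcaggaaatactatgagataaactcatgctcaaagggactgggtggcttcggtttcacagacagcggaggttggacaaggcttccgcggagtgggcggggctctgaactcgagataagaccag
Havcr2: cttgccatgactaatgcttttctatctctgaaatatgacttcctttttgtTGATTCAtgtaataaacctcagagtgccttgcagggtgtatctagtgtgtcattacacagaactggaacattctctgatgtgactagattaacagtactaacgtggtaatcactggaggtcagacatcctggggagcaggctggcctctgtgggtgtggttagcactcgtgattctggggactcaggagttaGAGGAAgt
Vsir: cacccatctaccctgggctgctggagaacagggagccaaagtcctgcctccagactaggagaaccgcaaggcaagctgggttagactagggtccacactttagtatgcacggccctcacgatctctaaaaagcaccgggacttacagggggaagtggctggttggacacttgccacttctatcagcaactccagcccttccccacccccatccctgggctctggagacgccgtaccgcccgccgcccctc

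Both strands of these promoters were searched for 7 short motifs of factors active in myeloid cells or lymphocytes. The PU.1 letters GAGGAA were found in *Pdcd1*, from 87 to 82 bases before its start, and in *Havcr2*, from 8 to 3 bases before its start, and in 23.3% of all 32851 promoters of the same length. An AP-1 match, TGANTCA, lay from 200 to 194 bases before the start of *Havcr2* and is in 6.75% of all promoters. No match to the IRF motif, GAAA repeated after 2 bases of any kind (2.98% of all promoters), the STAT letters TTCNNNGAA (7.02%), the NFAT letters TGGAAA (18.6%), the TATA box TATAAA (12.4%) or the NF-kB motif (3.9%) was in any of the 4 windows, and none of the 7 motifs was in those of *Cd274* and *Vsir*. GC content was 60.4% in *Pdcd1*, 50.4% in *Cd274*, 44.8% in *Havcr2* and 60.4% in *Vsir*, against a median of 52.4% over all promoters. *Cd274* held 11 CG dinucleotides and *Vsir* 9, above the median of 6, and *Pdcd1* held 3 and *Havcr2* 2.

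Per exon length, the 7 genes spanned a wide range in microglia. Levels in CPM per kilobase of summed exons (RPKM) over the 28 mice were 829.6 ± 73.8 for *Sirpa*, 538.1 ± 55.6 for *Vsir* and 167.2 ± 13.8 for *Havcr2* (SD, n = 28). In CPM, these 3 lay at the 99.9th, 99.8th and 98.2nd percentile of all genes tested. The RPKM level was 22.4 ± 19.6 for *Pdcd1*, 19.4 ± 5.94 for *Lag3*, 14.7 ± 3.03 for *Cd200r1* and 7.13 ± 3.57 for *Cd274* (SD, n = 28). *Pdcd1* varied most for its level, from 3.48 to 72.3 RPKM, and in WT mice it lay below *Lag3* by group mean under each condition. In GF 5xFAD mice it reached 54.1 ± 16.3 RPKM (SD, n = 5), above *Lag3* at 24.6 ± 3.24 RPKM. The level of *Cd200r1* depends on the exon length used: with the 3348 bases of the GENCODE M21 annotation in place of 2034 it was 8.94 ± 1.84 RPKM (SD, n = 28), and its place relative to *Pdcd1* in GF WT mice (8.58 ± 2.66 RPKM) turned from above, at 12.8, to below, at 7.79. In the 5xFAD groups it turned from above to below *Cd274*, from 15.6 to 9.49 against 9.78 RPKM in SPF, from 13.6 to 8.23 against 12.3 in GF and from 13.5 to 8.18 against 8.75 in ABX mice.

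**Figure D1:**
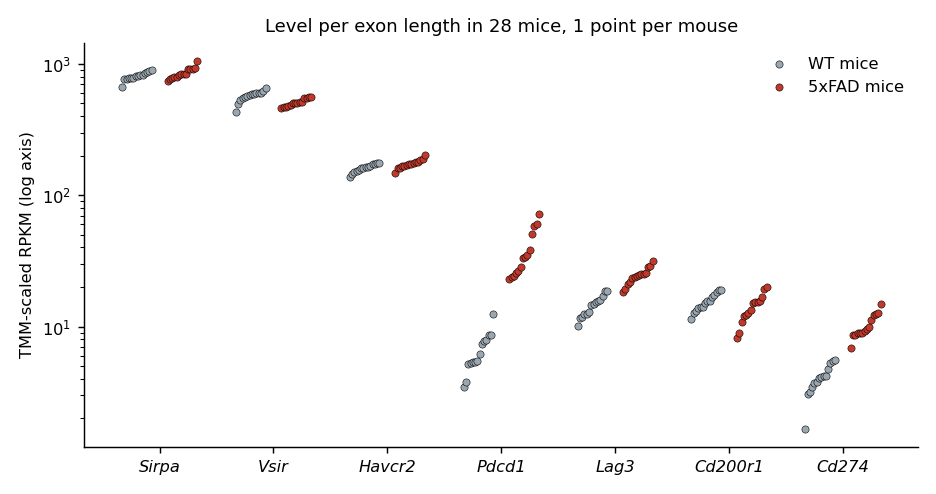
TMM-scaled RPKM of the 7 genes on a log axis, 1 point per mouse, with WT mice in grey and 5xFAD mice in red, sorted by level within each gene and genotype. *Sirpa*, *Vsir* and *Havcr2* formed a high tier with mean levels of 829.6, 538.1 and 167.2 RPKM and little spread, and *Pdcd1*, *Lag3*, *Cd200r1* and *Cd274* a low tier; only *Pdcd1* and *Cd274* had no overlap between the genotypes.

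The study compared microglia of 5xFAD and WT mice under each microbial condition. In all 3 conditions *Pdcd1*, *Cd274* and *Lag3* rose in 5xFAD mice (adjusted p under 0.05 in the quasi-likelihood test of edgeR, with Benjamini-Hochberg adjustment over all 15298 genes). Of the 7 genes, 3 were called higher and 0 lower in SPF mice, where 3.73% of all genes were called higher and 0.837% lower. In GF mice 3 were called higher and 1 lower, *Vsir*, beside 9.43% and 6.2% of all genes. In ABX mice 3 were called higher and 0 lower, beside 9.45% and 4.98%. Being higher in each of the 3 conditions was shared by 2.76% of all genes. An F test over the 6 groups called 4 of the 7, *Pdcd1* (adjusted p = 1.16e-12), *Cd274* (2.1e-08), *Lag3* (1.83e-05) and *Vsir* (0.0203), and 33.2% of all genes. *Havcr2* (adjusted p = 0.0893), *Cd200r1* (0.293) and *Sirpa* (0.353) did not pass it. With voomWithQualityWeights, the method of the study, these 3 passed as well (adjusted p = 0.00504, 0.0336 and 0.0238), beside 7868 of all 15298 genes, and the call of *Vsir* was lost without WT_GF_199 (adjusted p = 0.054).

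*Pdcd1* encodes PD-1, the receptor whose tail recruits the phosphatase SHP-2 after contact with its ligands. In SPF WT mice its level was 9.99, 10.2, 10.4, 16.5 and 16.6 CPM, and in SPF 5xFAD mice 44.7, 49.2 and 64.7 CPM. In GF WT mice it was 12.0, 15.0, 15.3 and 23.9 CPM, and in GF 5xFAD mice 55.3, 97.1, 112.7, 117.2 and 139.5 CPM. In ABX WT mice it was 6.72, 7.34, 10.3, 10.6 and 14.2 CPM, and the 6 ABX 5xFAD mice ranged from 46.1 to 73.6 CPM with a median of 58.5 CPM. The ranges of the genotypes were apart under each condition, and the lowest 5xFAD mouse of the study, at 44.7 CPM, stood above the highest WT mouse, at 23.9 CPM.

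*Pdcd1* was 4.14-fold higher in 5xFAD than in WT mice under SPF conditions (log2 fold change 2.05, SE 0.257, adjusted p = 1.68e-06). In GF mice the difference was 6.31-fold (log2 fold change 2.66, SE 0.26, adjusted p = 1.04e-08). In ABX mice it was 5.91-fold (log2 fold change 2.56, SE 0.236, adjusted p = 3.45e-09). The 95% intervals of these folds, 2.87 to 5.96, 4.36 to 9.13 and 4.23 to 8.26, overlapped. By group mean the order of levels was GF 5xFAD (104.4 ± 31.4 CPM, SD, n = 5), ABX 5xFAD (58.6 ± 11.8, n = 6), SPF 5xFAD (52.9 ± 10.5, n = 3), GF WT (16.6 ± 5.14, n = 4), SPF WT (12.7 ± 3.5, n = 5) and ABX WT (9.84 ± 3.00, n = 5). ABX and SPF 5xFAD mice did not differ beyond their spread, nor did neighbouring WT groups. GF and ABX 5xFAD mice differed by the test (adjusted p = 0.0123), but their ranges overlapped through FAD_GF_201, and the call was lost over 26 mice, without FAD_ABX_1151 and FAD_ABX_1482 (adjusted p = 0.0572), and in a fit of only the groups compared (adjusted p = 0.0513). Without FAD_GF_201, the GF 5xFAD mice reached 116.6 ± 17.5 CPM (SD, n = 4) and the log2 fold change against GF WT mice was 2.83 (adjusted p = 6.78e-10).

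*Cd274* encodes PD-L1, a ligand of PD-1 that also binds CD80 on the same cell. Its level was 11.1, 15.2, 17.3, 19.8 and 20.1 CPM in SPF WT mice and 32.3, 33.5 and 40.5 CPM in SPF 5xFAD mice. GF WT mice had 12.5, 13.8, 14.6 and 15.3 CPM, and GF 5xFAD mice 32.2, 44.6, 45.5, 46.1 and 53.9 CPM. ABX WT mice had 6.07, 11.5, 13.4, 15.0 and 19.0 CPM, and ABX 5xFAD mice ranged from 25.0 to 36.0 CPM with a median of 31.9 CPM. As for *Pdcd1*, the genotypes were apart under each condition and over all 28 mice, with WT mice at no more than 20.1 CPM and 5xFAD mice at no less than 25.0 CPM. The rise was 2.12-fold in SPF mice (log2 fold change 1.08, SE 0.219, adjusted p = 0.00168), 3.16-fold in GF mice (1.66, SE 0.215, adjusted p = 1.48e-06) and 2.44-fold in ABX mice (1.29, SE 0.192, adjusted p = 1.67e-05). Without FAD_GF_201 the GF value was 1.77 (adjusted p = 6.56e-07). The order of group means was GF 5xFAD (44.5 ± 7.79 CPM, SD, n = 5), SPF 5xFAD (35.4 ± 4.47, n = 3), ABX 5xFAD (31.7 ± 3.82, n = 6), SPF WT (16.7 ± 3.74, n = 5), GF WT (14.1 ± 1.2, n = 4) and ABX WT (13.0 ± 4.77, n = 5), in which neighbours of the same genotype did not pass the test.

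*Lag3* encodes a relative of CD4 that binds MHC class II and is shed from the membrane by ADAM10 and ADAM17. SPF WT mice had 26.3, 31.6, 33.3, 33.6 and 36.0 CPM, and SPF 5xFAD mice 44.3, 49.5 and 66.1 CPM. GF WT mice had 21.2, 30.7, 32.7 and 39.6 CPM, and GF 5xFAD mice 41.0, 51.4, 52.4, 54.4 and 59.7 CPM. ABX WT mice had 24.5, 25.1, 26.3, 27.1 and 39.0 CPM, and ABX 5xFAD mice ranged from 38.8 to 61.2 CPM with a median of 51.2 CPM. The genotypes were apart in SPF and GF mice, and in ABX mice they overlapped by 1 mouse on each side, WT_ABX_909 at 39.05 CPM and FAD_ABX_1460 at 38.8 CPM. *Lag3* was 1.66-fold higher in 5xFAD mice under SPF conditions (log2 fold change 0.73, SE 0.176, adjusted p = 0.0100), 1.67-fold in GF mice (0.74, SE 0.167, adjusted p = 0.00215) and 1.77-fold in ABX mice (0.83, SE 0.151, adjusted p = 0.000272). Without FAD_GF_201 the GF value was 0.75 (adjusted p = 0.0033). The SPF call rested on FAD_SPF_1146, the highest of the 3 mice: without it the log2 fold change was 0.56 (adjusted p = 0.141). Group means fell into a 5xFAD tier, with SPF at 53.3 ± 11.4 (SD, n = 3), GF at 51.8 ± 6.83 (n = 5) and ABX at 50.3 ± 7.45 CPM (n = 6), and a WT tier, with SPF at 32.2 ± 3.63 (n = 5), GF at 31.0 ± 7.58 (n = 4) and ABX at 28.4 ± 6.03 CPM (n = 5), and neighbours within a tier did not pass the test.

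**Figure D2:**
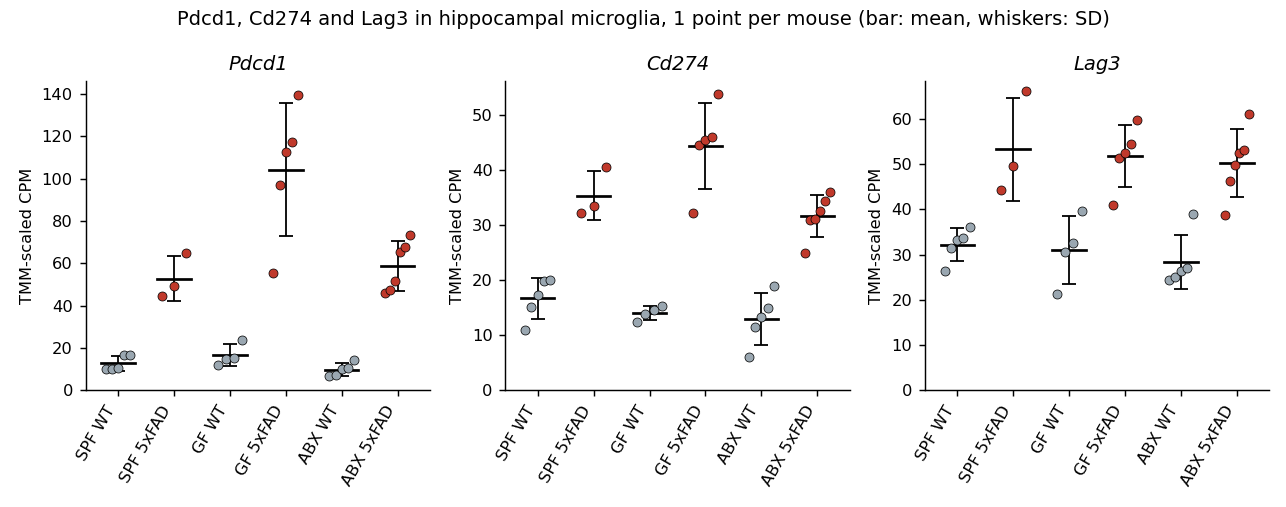
TMM-scaled CPM of *Pdcd1*, *Cd274* and *Lag3* in the 6 groups, 1 point per mouse, with the group mean as a bar and the SD as whiskers. All 5xFAD mice (red) lay above all WT mice (grey) for *Pdcd1* and *Cd274*, and GF 5xFAD mice had the highest mean of *Pdcd1* (104.4 CPM); *Lag3* means were between 50.3 and 53.3 CPM in the 3 5xFAD groups.

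Ranges of the genotypes without overlap were counted over all genes for comparison. In SPF mice 3 of the 7 genes lay higher without overlap and 0 lower, beside 9.44% and 7.5% of all genes. In GF mice 3 lay higher and 1, *Vsir*, lower, beside 9.14% and 5.68% of all genes. In ABX mice 2 lay higher and 0 lower, beside 4.68% and 2.15%. Over the 7 genes the median log2 fold change was 0.13 (SPF), 0.09 (GF) and 0.16 (ABX), against -0.03, -0.03 and -0.01 over all genes, so the median member moved little.

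Markers of other cells in the sort moved with genotype under some conditions. Neutrophil markers summed to 48.3 to 197.6 CPM in SPF 5xFAD mice and to at most 0.168 CPM in SPF WT mice, and the 3 tested of 6 rose there and in ABX 5xFAD mice, which had 0 to 103 CPM against 0 in ABX WT mice. The 3 were *Ngp*, with up to 94.9 CPM in a library, *S100a8*, with up to 52.0 CPM, and *S100a9*, with up to 50.4 CPM. *Ly6g*, *Retnlg* and *Mmp8*, which were not tested, did not exceed 0.272, 0.148 and 0.495 CPM in any library. Border-associated macrophage markers summed to 16.5 to 29.0 CPM in SPF 5xFAD and 3.38 to 7.71 CPM in SPF WT mice, where 5 of 7 rose, and to 33.3 to 258.7 CPM in ABX 5xFAD and 3.57 to 5.83 CPM in ABX WT mice, where 7 of 7 rose. In ABX 5xFAD mice 3 of 6 monocyte and dendritic cell markers tested, 1 of 2 T cell, 2 of 2 NK cell and 1 of 2 B cell markers rose as well, and the monocyte and dendritic cell markers summed to 19.1 to 67.3 CPM against 11.6 to 19.3 CPM in ABX WT mice. In GF mice 0 of 7 border-associated macrophage markers passed, whose sum lay between 10.5 and 43.1 CPM in the WT and between 10.8 and 84.9 CPM in the 5xFAD animals, and 0 of 3 neutrophil markers, with sums of at most 0.0895 CPM in the WT and 0.0519 CPM in the 5xFAD animals, while 1 of 2 NK cell and 1 of 4 astrocyte markers rose and 1 of 3 endothelial markers fell. Of the endothelial markers 1 also rose in SPF mice, and 1 rose and 1 fell in ABX mice. The part of these cells in the results was not tested, and in bulk samples a change in the number of cells and one in the RNA per cell cannot be told apart. Of the 8 microglia markers, 3 fell in SPF, 4 in GF and 4 in ABX 5xFAD mice, *P2ry12* and *Tmem119* under each condition.

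*Vsir* encodes VISTA, which binds PSGL-1 and is abundant on resting myeloid cells. SPF WT mice had 2638, 2803, 2960.1, 2984 and 3025 CPM, and SPF 5xFAD mice 2369.7, 2519 and 2739 CPM. GF WT mice had 2911, 2963, 3018 and 3265 CPM, and GF 5xFAD mice 2297, 2340.2, 2377, 2423 and 2798 CPM. ABX WT mice had 2155, 2482, 2732, 2876 and 3119 CPM, and ABX 5xFAD mice ranged from 2515 to 2799.8 CPM with a median of 2571 CPM. Only in GF mice were the genotypes apart, with every 5xFAD mouse below every WT mouse. The log2 difference there was -0.31 (SE 0.0791, adjusted p = 0.00594), from 3039 ± 157 CPM (SD, n = 4) to 2447 ± 202 CPM (SD, n = 5), and kept its side of the threshold in each of 36 alternative analyses. FAD_GF_201 was the highest GF 5xFAD mouse, and the other 4 had 2359 ± 53.6 CPM (SD, n = 4), which gave a log2 difference of -0.36 (adjusted p = 0.00136). The log2 difference was -0.18 in SPF mice (SE 0.0869, adjusted p = 0.339) and -0.03 in ABX mice (SE 0.0716, adjusted p = 0.857), and neither passed. The ABX and GF differences themselves differed by 0.29 on the log2 scale (95% interval 0.07 to 0.50), with adjusted p = 0.163, so the call in GF mice alone does not show that GF mice differ from the others.

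*Sirpa*, the most abundant of the 7 genes, encodes the CD47 receptor SIRPα. SPF WT mice ranged from 3977 to 4342 CPM, SPF 5xFAD mice from 4022 to 4495, GF WT mice from 3790.2 to 4425, GF 5xFAD mice from 3657 to 4134, ABX WT mice from 3248 to 4240.4 and ABX 5xFAD mice from 3747 to 5154 CPM. All genotype ranges overlapped. The fold in 5xFAD mice had 95% intervals of 0.931 to 1.19 in SPF, 0.892 to 1.12 in GF and 1.01 to 1.24 in ABX mice, with adjusted p = 0.824, 1 and 0.136 in that order.

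*Havcr2* encodes TIM-3, a receptor for phosphatidylserine and galectin-9. It ranged from 417.3 to 477.8 CPM in SPF WT, 467.6 to 508.4 in SPF 5xFAD, 374.4 to 471.9 in GF WT, 402.8 to 468.3 in GF 5xFAD, 410.7 to 477.5 in ABX WT and 439.9 to 548.6 CPM in ABX 5xFAD mice. Groups overlapped throughout. The group mean was higher in 5xFAD than in WT mice under each condition, by 0.13 in SPF (SE 0.0808, adjusted p = 0.514), 0.09 in GF (SE 0.0746, adjusted p = 0.484) and 0.12 in ABX mice (SE 0.0673, adjusted p = 0.264) on the log2 scale, and none passed. With library size alone as scaling the GF difference turned to -0.04. The F test of *Havcr2* passed with DESeq2 (adjusted p = 0.0206), without WT_GF_199 (0.0286) and without FAD_ABX_1482 (0.0436).

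*Cd200r1* encodes the inhibitory receptor for CD200. It was at 28.7 to 37.4 CPM in SPF WT, 25.6 to 39.0 in SPF 5xFAD, 23.3 to 28.2 in GF WT, 16.6 to 40.8 in GF 5xFAD, 28.6 to 38.8 in ABX WT and 18.2 to 33.9 CPM in ABX 5xFAD mice. The spread was wider in 5xFAD than in WT mice, with SDs of 6.79, 9.04 and 6.14 against 3.2, 2.09 and 4.14 CPM in SPF, GF and ABX mice. Genotype ranges overlapped, and the log2 differences were -0.02 (SE 0.206, adjusted p = 0.985), 0.08 (SE 0.19, adjusted p = 0.836) and -0.36 (SE 0.171, adjusted p = 0.172). In GF WT mice every value was below those of SPF WT mice, which held for 5.16% of all genes in that direction, and below those of ABX WT mice, which held for 4.68%. Neither difference passed (log2 -0.30, adjusted p = 0.446 for GF against SPF, and 0.43, adjusted p = 0.175 for ABX against GF).

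**Figure D3:**
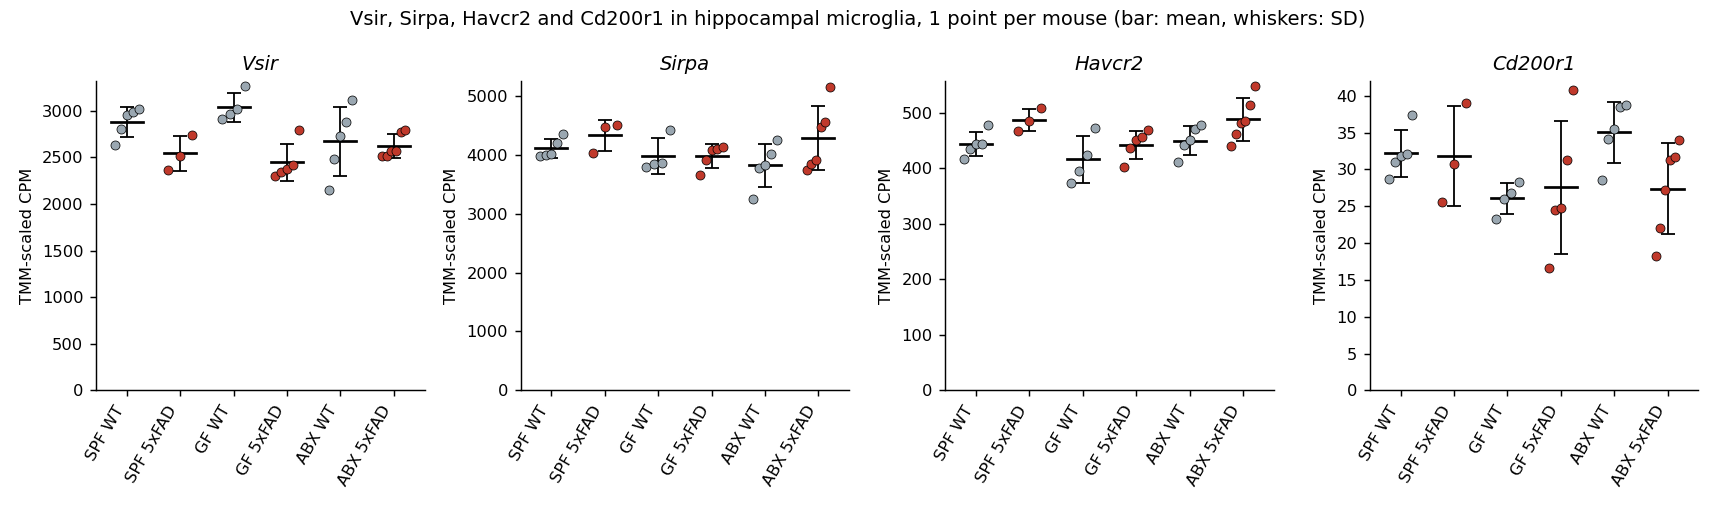
TMM-scaled CPM of *Vsir*, *Sirpa*, *Havcr2* and *Cd200r1* in the 6 groups, 1 point per mouse, with the group mean as a bar and the SD as whiskers, on axes that start at 0. *Vsir* was lower in GF 5xFAD (2447 CPM) than in GF WT mice (3039 CPM) without overlap, while the genotype ranges of the other 3 genes overlapped under each condition.

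**Figure D4:**
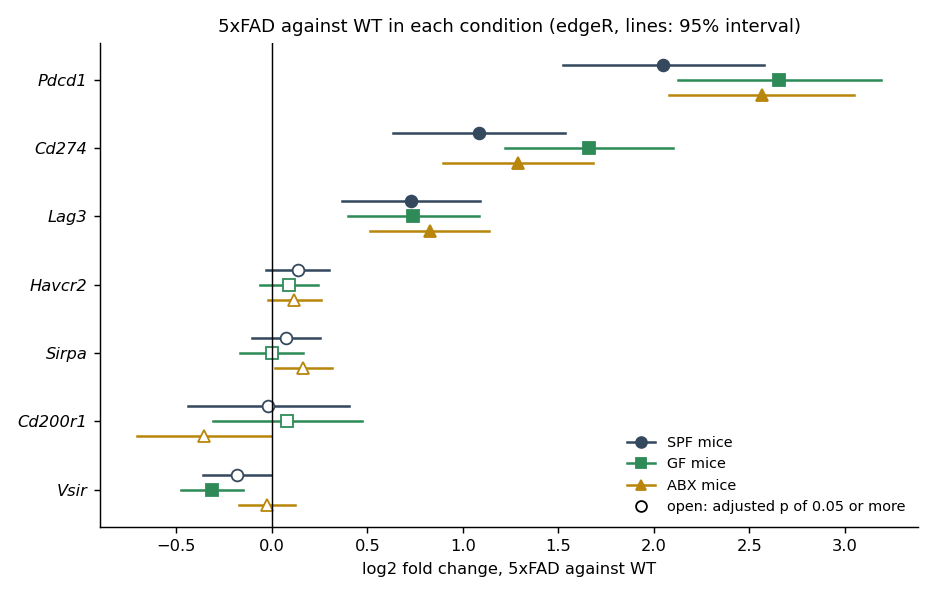
Log2 fold change between 5xFAD and WT mice for the 7 genes in SPF, GF and ABX mice, with 95% intervals as lines and filled symbols where the adjusted p is under 0.05. *Pdcd1* (2.05, 2.66 and 2.56), *Cd274* (1.08, 1.66 and 1.29) and *Lag3* (0.73, 0.74 and 0.83) rose under each condition, and *Vsir* fell in GF mice (-0.31).

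The microbial conditions were then compared within each genotype. In WT mice, GF against SPF, ABX against SPF and ABX against GF gave 0 of 7 genes each, beside 1.62%, 0% and 6.88% of all genes; at an unadjusted p under 0.05 they gave 0, 0 and 3 of the 7, beside 2538, 687 and 3458 of all 15298 genes. For ABX against SPF WT mice, DESeq2 called 2 and voomWithQualityWeights 0 of all genes. The largest WT difference was that of *Pdcd1* between ABX and GF mice, 0.6 times (log2 -0.74, SE 0.248, adjusted p = 0.0692), which missed the threshold in edgeR and passed it in DESeq2 (adjusted p = 0.0263). Border-associated macrophage markers moved between these groups, with 5 of 7 lower in ABX than in GF WT mice and 5 of 7 higher in GF than in SPF WT mice, and their part was not tested.

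In 5xFAD mice *Pdcd1* was the only one of the 7 genes called between conditions. It was 1.97-fold higher in GF than in SPF mice (log2 0.98, SE 0.266, 95% interval 0.44 to 1.53, adjusted p = 0.0156), beside 6.97% of all genes called higher and 12.8% called in either direction. This call was lost without FAD_SPF_1146 (log2 0.91, adjusted p = 0.087) or without FAD_SPF_1148 (0.86, adjusted p = 0.108), when 2 SPF 5xFAD mice remained. In ABX mice *Pdcd1* was at 0.562 times its level in GF mice (log2 -0.83, SE 0.212, 95% interval -1.26 to -0.40, adjusted p = 0.0123), beside 6.07% of all genes called lower and 10.6% called in either direction. In the 2 fits that lost that call, given above, the log2 difference was -0.69 over 26 mice and -0.80 with only the groups compared. FAD_GF_201, at 55.3 CPM, lay within the range of the SPF and ABX 5xFAD mice, and the other 4 GF 5xFAD mice, from 97.1 to 139.5 CPM, lay above all of them. Without it the difference was 1.14 between GF and SPF mice (adjusted p = 0.00352) and -0.99 between ABX and GF mice (adjusted p = 0.00184). Neutrophil markers moved between the same groups, with 3 of 3 lower in GF than in SPF and 2 of 3 higher in ABX than in GF 5xFAD mice. Of the 8 microglia markers 2 were higher and 2 lower in GF than in SPF mice, and 3 higher and 1 lower in ABX than in GF mice. Of the other lists, 1 B cell marker was higher in GF than in SPF mice, and 1 marker each of T cells, border-associated macrophages, monocytes and dendritic cells, neurons and astrocytes was higher in ABX than in GF mice. The part of all these in the *Pdcd1* differences was not tested. ABX and SPF 5xFAD mice differed in 0 of the 7 genes and in 0% of all genes in edgeR, with 1085 genes at an unadjusted p under 0.05, none of them among the 7, and DESeq2 and voomWithQualityWeights called 8 and 134 genes but also 0 of the 7. For *Pdcd1* the interval of that difference was -0.36 to 0.66 on the log2 scale.

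*Cd274* followed with smaller differences that did not pass. It was higher in GF than in SPF 5xFAD mice (log2 0.33, SE 0.224, adjusted p = 0.376) and lower in ABX than in GF 5xFAD mice (log2 -0.49, SE 0.183, adjusted p = 0.0844). The second difference passed without FAD_GF_201 (log2 -0.58, adjusted p = 0.0401), whose 32.2 CPM was the lowest value of its group, and without WT_ABX_909 (-0.47, adjusted p = 0.0407). *Lag3* differed between conditions in 5xFAD mice by no more than 0.08 on the log2 scale in either direction, with 95% intervals within -0.44 and 0.32. GF mice thus appear in both *Pdcd1* comparisons as the shared group, and the values of one are not independent of those of the other.

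**Figure D5:**
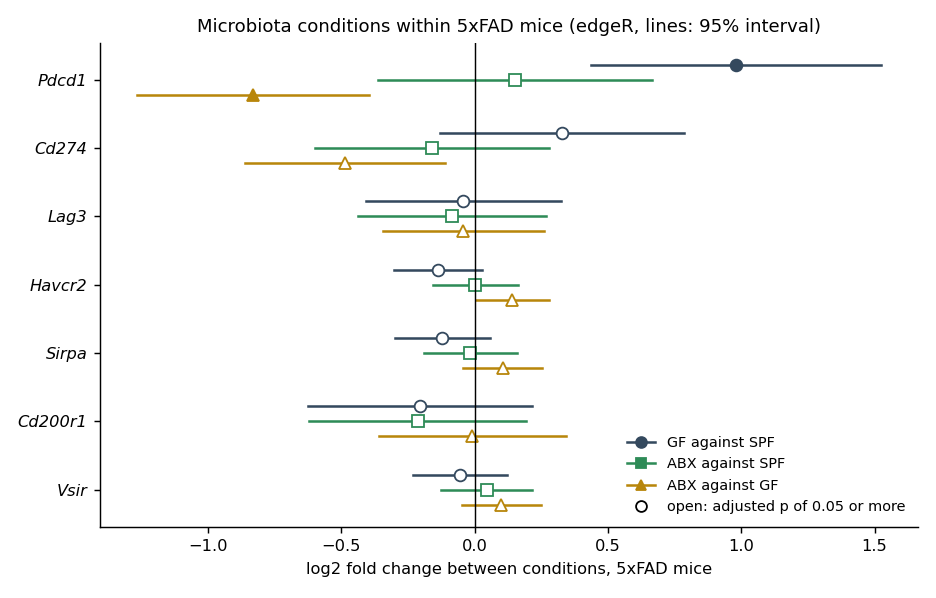
Log2 fold change between microbial conditions within 5xFAD mice for the 7 genes, with 95% intervals as lines and filled symbols where the adjusted p is under 0.05. *Pdcd1* was higher in GF than in SPF mice (0.98) and lower in ABX than in GF mice (-0.83); the other 6 genes had open symbols throughout.

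Whether the 5xFAD effect differed between conditions was tested as an interaction. None of the 7 genes passed for GF against SPF, ABX against SPF or ABX against GF mice, beside 0%, 0% and 1.76% of all genes in edgeR; at an unadjusted p under 0.05 the counts were 0, 0 and 1 of the 7, beside 1304, 1032 and 2436 of all 15298 genes. For the first 2, DESeq2 called 25 and 1 and voomWithQualityWeights 116 and 14 of all genes, again with 0 of the 7. The 5xFAD effect on *Pdcd1* was 0.61 larger in GF than in SPF mice on the log2 scale (95% interval -0.12 to 1.34, adjusted p = 0.671) and 0.51 larger in ABX than in SPF mice (-0.19 to 1.22, adjusted p = 0.806). For *Cd274* the first difference was 0.58 (-0.05 to 1.20, adjusted p = 0.622). Among the marker lists, 7 of 7 border-associated macrophage markers had a higher 5xFAD effect in ABX than in GF mice. Of the 8 microglia markers 1 was higher and 1 lower in that interaction, and the part of these markers was not tested. The higher *Pdcd1* in GF 5xFAD mice was therefore not shown to be an effect of genotype that depends on the microbiota.

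Partners and relatives of the 7 genes were counted from lists of 72 genes, of which 56 were tested. In SPF mice 11 rose and 5 fell in 5xFAD mice (28.6% of those tested, against 4.57% of all genes), in GF mice 11 rose and 9 fell (35.7% against 15.6%) and in ABX mice 19 rose and 5 fell (42.9% against 14.4%). Their median log2 fold change was -0.01, 0.02 and 0.12. Without FAD_GF_201 all 20 calls of the GF comparison remained, as did the 5 between GF and SPF and the 6 between ABX and GF 5xFAD mice. Of the 24 calls between genotypes in ABX mice 23 remained.

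Of 14 ligands and counter-receptors, 9 were tested, and 1 rose in SPF, 1 in GF and 2 in ABX 5xFAD mice, while 0, 2 and 1 fell. *Lgals3*, encoding galectin-3, a ligand of LAG-3, rose under each condition, from 4.37 ± 1.6 to 14.1 ± 4.82 CPM in SPF mice (SD, n = 5 and 3; log2 1.69, adjusted p = 0.0115), by 1.25 in GF mice (adjusted p = 0.0286) and by 1.56 in ABX mice (adjusted p = 0.00376). *Selplg*, encoding the VISTA partner PSGL-1, had the largest mean level of the list and fell with *Vsir* in GF mice, from 7764 ± 478 to 6404 ± 415 CPM (SD, n = 4 and 5; log2 -0.28, adjusted p = 0.0237). The log2 difference was -0.24 in SPF (adjusted p = 0.175) and -0.04 in ABX mice (adjusted p = 0.799), and no ligand passed an interaction of genotype with condition. *Ceacam1*, encoding a TIM-3 partner, fell by 0.78 in GF mice (adjusted p = 0.000789) and by 0.54 in ABX mice (adjusted p = 0.011), and had a log2 difference of -0.51 in SPF mice (adjusted p = 0.11). *Cd47* did not pass, with log2 differences of -0.21, -0.20 and -0.20 and a level between 187.9 and 312 CPM. *Cd200* did not exceed 2.12 CPM in any library, and *Pdcd1lg2*, encoding the second PD-1 ligand, not 1.59 CPM and was not tested. The last 3 and *Ceacam1* were chosen for naming after their values were seen, as were *Lyn*, *Syk*, *Timd4*, the Sirpb1 genes, *Siglece*, *Icosl* and *Cd276* among the genes that follow.

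All 15 phosphatases and adaptors were tested. The counts of rises were 2, 1 and 4 and of falls 2, 4 and 2 in SPF, GF and ABX mice, and *Fyn*, encoding a Src family kinase, was the only one to rise under each condition (log2 0.70, 0.63 and 0.49; adjusted p = 0.00931, 0.00595 and 0.0198). *Inpp5d*, encoding the lipid phosphatase SHIP-1 and the most abundant of the list, fell in GF mice (-0.30, adjusted p = 0.0252) and rose in ABX mice (0.25, adjusted p = 0.0368), with -0.01 in SPF mice (adjusted p = 0.979). The ABX and GF effects on *Inpp5d* differed by 0.55 (SE 0.123, adjusted p = 0.0237 for the interaction). Of the border-associated macrophage markers 7 of 7 passed the same interaction, and their part was not tested. In GF mice the kinase genes *Lyn* and *Syk* were among those that fell beside *Inpp5d*. *Lyn* also fell in ABX mice (-0.18, adjusted p = 0.0366), where *Inpp5d* rose. Of the 2 sheddases, neither passed between genotypes, and *Adam10* had log2 differences of 0.08, -0.34 and -0.05 (adjusted p = 0.913, 0.0892 and 0.834). Between conditions in 5xFAD mice *Adam10* was called lower in GF mice, at 376.2 ± 38.1 CPM (SD, n = 5), than in SPF mice, at 563.9 ± 10.8 CPM (n = 3), and higher in ABX mice, at 504.6 ± 117.8 CPM (n = 6), than in GF mice.

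Of 9 relatives, a list of paired activating receptors together with TIM family genes, 5 were tested. *Cd200r4*, which lies in the gene cluster of *Cd200r1* and signals through an activating adaptor, rose under each condition, from 1.53 ± 0.664 to 11.1 ± 3.33 CPM in SPF mice (SD, n = 5 and 3; log2 2.86, adjusted p = 0.000614), from 1.6 ± 1.35 to 16.7 ± 6.9 CPM in GF mice (3.39, adjusted p = 4.79e-05) and from 2.06 ± 1.3 to 8.1 ± 2.4 CPM in ABX mice (1.99, adjusted p = 0.00389), while *Cd200r1* did not pass. The other 4, *Timd4* and the Sirpb1 genes *Sirpb1a*, *Sirpb1b* and *Sirpb1c*, were called higher in ABX 5xFAD mice. Without FAD_GF_201 *Sirpb1c* did not pass the filter on low counts and was not tested. The effects on these 4 genes in ABX and SPF mice were not shown to differ, since none of the list passed that interaction. *Timd4* passed the interaction of ABX against GF mice (adjusted p = 0.0104), as did 7 of 7 border-associated macrophage markers. *Timd4* was also higher in ABX than in GF 5xFAD mice (adjusted p = 0.0101), as was 1 of those markers. The part of these markers was not tested. *Timd4* and the Sirpb1 genes had 0 reads in ABX WT mice and at most 4.08 and 1.36 CPM elsewhere, so no fold is given.

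A list of 32 other genes held further inhibitory receptors together with ligands, costimulatory molecules, ectoenzymes and a lysosomal protein tied to immune checkpoints; 25 were tested, and 7 rose and 3 fell in SPF, 8 and 3 in GF and 8 and 2 in ABX 5xFAD mice. *Lilrb4a*, an inhibitory receptor of myeloid cells with a closely similar neighbour gene that could share its reads, rose under each condition, from 4.78 ± 1.28 to 57.3 ± 3.85 CPM in SPF mice (SD, n = 5 and 3), from 9.55 ± 1.98 to 83.0 ± 17.8 CPM in GF mice (n = 4 and 5) and from 4.43 ± 1.47 to 45.9 ± 6.4 CPM in ABX mice (n = 5 and 6), with log2 fold changes of 3.59, 3.12 and 3.39. *Cd300lf*, encoding a lipid-binding inhibitory receptor, rose by 2.99, 3.59 and 3.00. *Cd72*, *Cd5* and *Cd22*, all best known as inhibitory receptors of lymphocytes, rose under each condition as well, *Cd72* by 1.99, 2.59 and 2.10, *Cd5* by 3.14, 3.93 and 2.64 and *Cd22* by 1.14, 1.46 and 1.64. *Cd28*, encoding a costimulatory receptor that activates rather than restrains, was called under each condition at 0 to 4.1 CPM and had 0 reads in every ABX WT mouse. *Laptm5*, encoding the lysosomal protein and the most abundant of the list, rose in ABX mice by 0.20 (adjusted p = 0.0179). The 3 that fell in SPF mice were the receptor gene *Siglece* (-0.82, and -0.98 in GF mice) and *Icosl* (-0.69) and *Cd276* (-0.54), which encode ligands of the B7 family.

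The genes nearest to the members that passed the F test were found, 3 for each, from the root mean square (RMS) difference of centred log2 CPM over the 6 group means, among 8929 genes whose mean log2 CPM was 3 or more. To *Pdcd1* these were *Plaur* (RMS 0.0997), *Psat1* (0.138) and *Fxyd5* (0.159), where the median over all genes was 1.29. *Plaur*, encoding the urokinase receptor, went from 12.7, 16.6 and 10.7 CPM in SPF, GF and ABX WT mice to 57.1, 128.3 and 62.2 CPM in the 5xFAD mice. To *Cd274* the nearest were *Ctsb* (0.111), *Speg* (0.125) and *Rassf3* (0.127), where the median was 0.742. Those of *Lag3* included *Man2b1* (0.0583) and *Txndc16* (0.0632), with a median of 0.434. Those of *Vsir* included *Arhgap27* (0.0247) and *Inpp5e* (0.0286), with a median of 0.188, so RMS values cannot be compared between members.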

How the data were processed

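RNA of FACS-isolated hippocampal microglia was sequenced by the authors as 50-base single reads, aligned to GRCm38 with STAR 2.7.2 and counted with featureCounts 1.6.2 on GENCODE M21. The table deposited by the authors holds raw counts per gene, without normalization, for 28 libraries. The strand setting of the counting is not given in the sources used here. Of its 48587 gene symbols, 46484 are names in GENCODE M21, and 92 spike-in entries with at most 12 reads in a library were left out. Groups were taken from the titles and genotype labels.

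Genes were filtered with filterByExpr (minimum count 10, minimum total 15), TMM factors were applied, and edgeR 4.0.16 in R 4.3.3 was fitted on all 28 mice with 1 term per group, followed by its quasi-likelihood test. Benjamini-Hochberg adjustment ran over 15298 genes, with a threshold of 0.05. The study used limma's voomWithQualityWeights, which was run as an alternative (limma 3.58.1), as were DESeq2 1.42.0, RLE factors, library size alone, no filter, at least 10 counts in every library, a fit of only the groups compared, 26 mice, and leaving out each mouse. The code was tested on simulated data. Log2 CPM used a prior count of 2, and RPKM are scaled CPM per kilobase of summed exons.

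The 7 genes, the lists of 72 partners and relatives, the marker lists and the 26-mouse set were chosen with earlier results of these data known. Partners were named where they passed in 5xFAD against WT mice under all 3 conditions or had the largest mean CPM of their list; others were named after their values were seen, as said there. The exon length of *Cd200r1* in the table, 2034 bases, differs from the 3348 of GENCODE M21. Promoter sequences are from RefSeq. Plots were made in Python 3.11.15 (matplotlib 3.10.9). Some genes of the lists and of the nearest patterns are not reported here.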

Additional observations from a re-analysis of the deposited data

Results flagged for a closer look

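Of 35 sets of CPM values, each of 1 gene in 1 group of 4 to 6 mice, 3 held a mouse whose gap to the nearest other mouse was large for the range of its group by Dixon's test, where chance gives about 1 in 20. *Lag3* was 39.05 CPM in WT_ABX_909 against 24.5 to 27.1 CPM in the other ABX WT mice, and above 1 ABX 5xFAD mouse, FAD_ABX_1460 at 38.8 CPM. *Vsir* was 2798 CPM in FAD_GF_201 against 2297 to 2423 CPM in the other GF 5xFAD mice, and this is the mouse whose labels disagree on the genotype. *Sirpa* was 4425 CPM in WT_GF_199 against 3790.2 to 3857 CPM in the other GF WT mice.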

How the results depend on the processing

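The rises of *Pdcd1* and *Cd274* in 5xFAD mice and the fall of *Vsir* in GF 5xFAD mice passed in each of 36 alternatives per comparison, and that of *Lag3* in each but the SPF one without FAD_SPF_1146. Of the 7 genes, the number called between ABX and GF WT mice went from 0 to 1 with at least 10 counts in every library and with DESeq2 (*Pdcd1* in both) and with only the groups compared (*Cd200r1*), and was 0 to 2 without single mice. Between GF and SPF 5xFAD mice it went from 1 to 2 with library size alone, which added *Havcr2*, and was 0 to 1 without single mice. Between ABX and GF 5xFAD mice it went from 1 to 2 with library size alone, 0 over 26 mice and 0 with only the groups compared, and was 1 to 2 without single mice. The F test called 7 with voomWithQualityWeights, in place of 4, where it called 7868 of all 15298 genes in place of 5079. *Havcr2* also passed it with library size alone (adjusted p = 0.0315), with at least 10 counts in every library (0.0431), with DESeq2 (0.0206), without WT_GF_199 (0.0286) and without FAD_ABX_1482 (0.0436). *Vsir* missed it without WT_GF_199 (adjusted p = 0.054). The cause was not tested.

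Directions that turned belonged to differences that had not passed. They were those of 5xFAD against WT for *Havcr2* in GF mice with library size alone (-0.0359), *Vsir* in ABX mice over 26 mice (0.00301), *Sirpa* in GF mice with RLE factors (0.00348), with at least 10 counts in every library (0.023), with DESeq2 (0.00347) and with voomWithQualityWeights (0.0305), and *Cd200r1* with voomWithQualityWeights in SPF (0.113) and GF mice (-0.0087) and with library size alone in GF mice (-0.0408). The *Pdcd1* interaction of ABX against GF turned over 26 mice (0.0444). Without single mice, log2 differences between 5xFAD and WT ranged from -0.0902 to 0.0347 for *Vsir* in ABX mice, from -0.0242 to 0.055 for *Sirpa* in GF mice, and from -0.181 to 0.12 in SPF and -0.0973 to 0.227 in GF mice for *Cd200r1*. The *Pdcd1* interaction of ABX against GF ranged from -0.317 to 0.0855, *Cd274* in ABX against GF WT mice from -0.287 to 0.0656, and *Lag3* from -0.163 to 0.124 in GF and from -0.202 to 0.0952 in ABX against SPF 5xFAD mice. For GF 5xFAD against WT, scaling by library size alone took the median over all genes from -0.03 to -0.15. The genes called went from 1442 higher and 949 lower to 1107 and 1919 there, and from 1445 and 762 to 1160 and 1311 in ABX mice. Between GF and SPF 5xFAD mice they went from 1066 and 896 to 626 and 1295. Between ABX and GF 5xFAD mice they went from 692 and 929 to 1173 and 554. The exon length of *Cd200r1*, an alternative chosen after seeing the data, moved its mean from 14.7 to 8.94 RPKM.

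No paired analysis was possible because the replicate numbers are mouse numbers that groups do not share. With 3 SPF 5xFAD mice, leaving out 1 of them decided several calls, and p-values cover the spread between mice only.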
